A study of Phalaenopsis aphrodite subsp. formosana with 4 samples.

Results

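The flower bud (FB) library of the moth orchid *Phalaenopsis aphrodite* subsp. *formosana* was set against the stalk (S) library, the stalk being the stem of the inflorescence on which the buds form. Both came from plants of strain M1624 that had been grown at 28°C for 7 to 8 months and were then moved to a cool regime of 24°C by light and 18°C by dark. Buds were taken after 3.5 months and stalks after 1.5 and 2 months, so organ and time of collection cannot be told apart. The labels give the cool regime for 2 months and do not state the temperature after that, when the buds were taken. The 2 libraries are 2 of the 4 of the series, chosen by their titles. The other 2 are leaf libraries, 1 from cooled plants (CL) and 1 from plants kept warm, with 32°C by light and 27°C by dark (NL), and serve here only to place single values. Small RNAs were cut from a gel at 20 to 25 nt and sequenced, and sequences that matched a plant miRNA of miRBase 15 were counted. Sequences were joined into a family by the number of the miRNA they matched best. Families and sequences with 100 or more reads over both libraries were compared, which kept 26 of the 309 families and 121 of the 6605 sequences found in either library. The 26 families held 99.6% of the matched reads of FB and 99.2% of those of S. The family just inside the limit was miR160, with 103 reads, and the families just outside it were miR2914, with 99, and miR396, with 98. The number of plants behind each library is not stated. Each library is bulk tissue, in which fewer cells carrying a miRNA and less miRNA per cell cannot be told apart. The tables hold small RNAs alone, so the labelled organs could not be checked against marker transcripts. Which table is FB and which is S was taken from their labels. The tables hold 4831 sequences in FB and 3288 in S, as the study lists for these organs. They were therefore not exchanged after that listing. Whether the organs were exchanged before it could not be checked, and that would turn every direction given here round. This doubt about the labels bears on every family. The study also probed miR528, miR167, miR159, miR164, miR166 and miR169 by RNA blot in these organs, which is not restated here.

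A plant miRNA is a short RNA, most often beginning with U, that guides an Argonaute protein to messenger RNAs with a nearly complementary site, which are then cleaved or held back from translation. Many families are shared by all flowering plants and have known targets in *Arabidopsis* and rice: miR156 holds back the SPL genes of the adult and flowering phases, miR172 holds back the AP2-like genes that delay flowering and shape floral organs, and miR167 and miR160 act on auxin response factors. One family comes from several genomic loci and its mature copies can differ by a few bases. The seed, bases 2 to 8 from the 5′ end, is a part in which mismatches to a target are poorly tolerated. Target messenger RNAs were not measured in these tables.

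The sequences below carry the differences described here: the leading form of the families that differed most or held most reads, and the forms that took different shares of their family in FB and S. Forms are numbered within a family by reads over both libraries, and T stands for U as in the deposited tables. Capitals mark the seed.
miR528 form 1: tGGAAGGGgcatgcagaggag
miR397 form 1: tTGAGGGCagcgttgatgaaa
miR169 form 1: cAGCCAAGgatgacttgccga
miR169 form 2: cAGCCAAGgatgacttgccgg
miR535 form 1: tGACAACGagagagagcacgc
miR535 form 2: tGACGATGagagagagcacgc
miR156 form 1: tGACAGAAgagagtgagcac
miR156 form 2: cTGACAGAagatagagagcac
miR157 form 1: tGACAGAAgatagagagcac
miR172 form 1: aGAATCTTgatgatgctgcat
miR172 form 2: gGAATCCTgatgatgctgcat
miR172 form 3: aGAATCATgatgatgctgcaa
miR172 form 12: tGAATCTTgatgatgctgctt
miR167 form 1: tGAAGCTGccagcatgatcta
miR167 form 2: tGAAGCTGccagcatgatctga
miR529 form 1: aGAAGAGGgtagaggaagctt
miR529 form 2: aGAAGAGAgagagtacagcct
miR168 form 1: tCGCTTGGtgcaggtcgggac
miR166 form 1: tCGGACCAggcttcattcccc
miR164 form 1: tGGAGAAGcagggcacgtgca
miR160 form 1: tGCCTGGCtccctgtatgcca
miR394 form 1: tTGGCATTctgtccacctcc
miR1318 form 1: tGCAGGAGagatgacaccggcc
Form 1 of miR156 and form 1 of miR157 share the seed GACAGAA, and differ by G11T and T14A (the base of miR156, the position counted from the 5′ end, and the base of miR157). The 20 bases of miR157 form 1 lie inside miR156 form 2, which has 1 more base at its 5′ end and so another seed. Form 2 of miR535 differs from form 1 by A5G and C7T, both in the seed. Within miR172, form 2 differs from form 1 by A1G and T7C, form 3 by T7A and T21A, and form 12 by A1T and A20T, so forms 2 and 3 have seeds of their own. The 2 forms of miR169 differ only at their last base (A21G). Forms 1 and 2 of miR167 share their first 20 bases. Forms 1 and 2 of miR529 share only their first 7 bases.

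Matched reads came to 265352 in FB, of 4831 different sequences and 243 families, and to 106142 in S, of 3288 sequences and 239 families. They made up 4.2% (exact 95% interval 4.18 to 4.22) of the clean reads of FB and 1.32% (1.32 to 1.33) of those of S, clean reads being all small RNA reads that passed the study's filters. RPM stands for reads in each 1000000 clean ones. The ratio was 3.17 (3.15 to 3.19), or 1.67 on the log2 scale, and 1.99 (1.98 to 2.01) without the single family miR528. Sequencing reads are not independent molecules after PCR, and intervals here cover counting error only. With 1 library per organ there is no replicate check and no test, so every ratio compares these 2 libraries and not the organs in general.

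Because miRNAs took a larger share of FB, the choice of denominator moves all ratios by the same factor of 3.17. Ratios are therefore given per clean read, as the study scales its reads, and per matched read. The latter sets each family against all matched reads of its own library, those of the family included. "Higher" means a ratio of FB to S above 1.5 and "lower" one below 0.667. Per clean read 17 of 26 families (65.4%) were higher and 1 (3.85%) was lower in FB. Per matched read 9 (34.6%) were higher and 11 (42.3%) lower. The 9 families higher by both were miR397, miR528, miR169, miR160, miR535, miR157, miR2911, miR164 and miR171, and miR1318 was lower by both. Because the factor is fixed, any family higher per matched read is also higher per clean read. Likewise, any family lower per clean read is also lower per matched read. The median ratio over the 26 families was 2.66 per clean read and 0.840 per matched read.

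**Figure D1:**
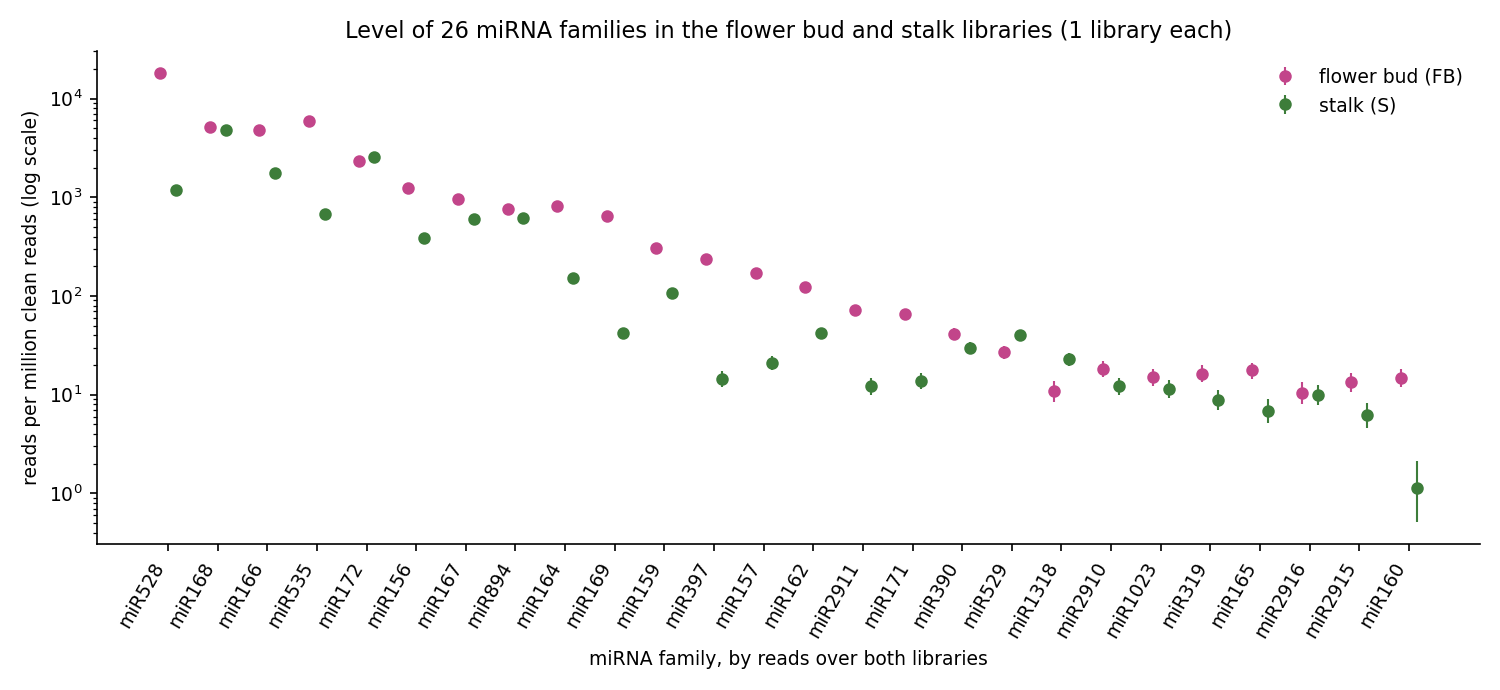
Level of each of the 26 families in reads per 1000000 clean reads (RPM, log axis), flower bud left and stalk right of each position, 1 library each, with exact 95% counting intervals; families run from most to fewest reads over both libraries. The FB point of miR528, at 17966, stands 15.2 times above its S point, while the points of miR168 and miR172 nearly meet and those of miR529 and miR1318 are the other way round.

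**Figure D2:**
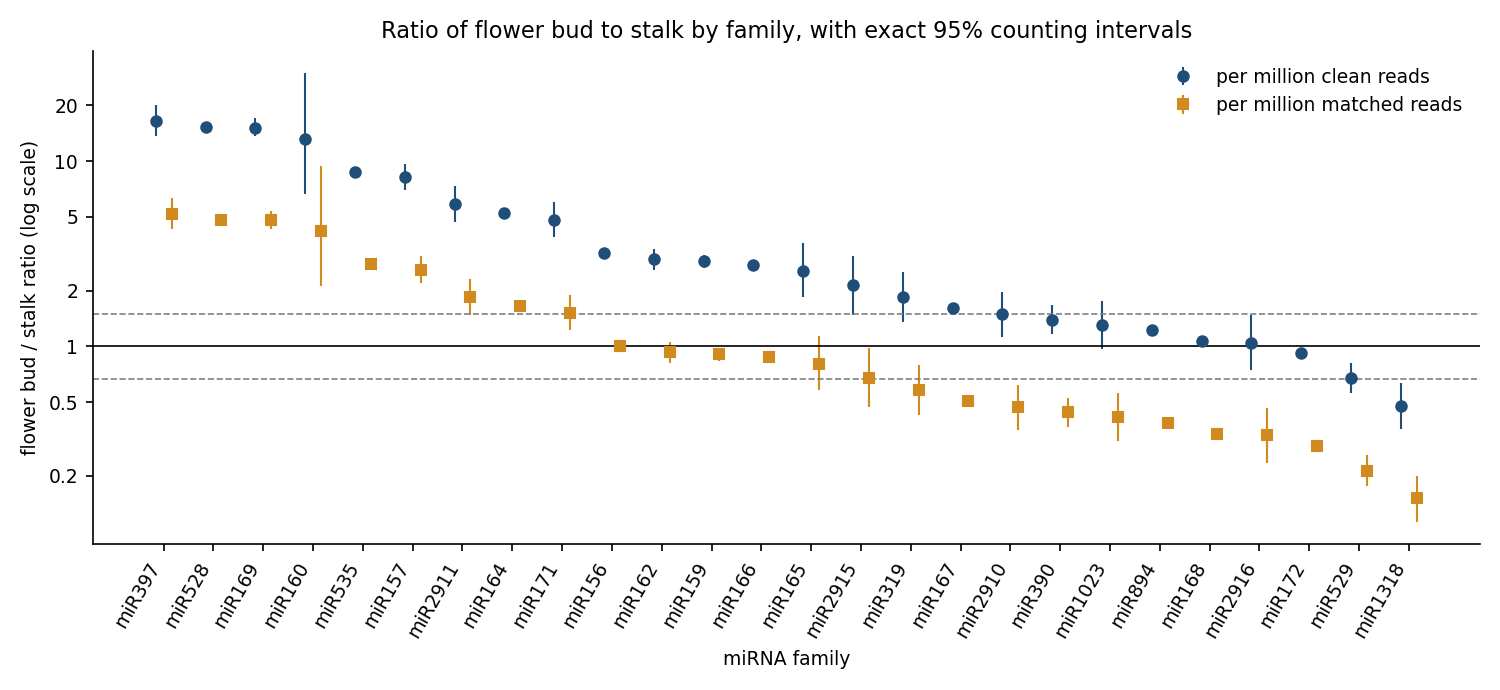
Ratio of FB to S for each family (log axis) per clean read (circles) and per matched read (squares), with exact 95% counting intervals; dashed lines mark the limits 1.5 and 0.667. The 9 families on the left from miR397 to miR171 lie above 1.5 by both denominators, and miR1318 on the far right lies below 0.667 by both.

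The families with the largest ratios included those that act on copper proteins and laccases, and both of the 2 such families with enough reads were higher in FB by both denominators, with median ratios of 15.9 per clean and 5.01 per matched read. Over all 26 families the share that was higher was 65.4% per clean and 34.6% per matched read, and 2 families are too few to set against it. miR528, a monocot family that in rice acts on copper proteins such as an ascorbate oxidase, had 113491 reads (17966 RPM) in FB and 9450 (1179 RPM) in S, a ratio of 15.2 (14.9 to 15.6) per clean and 4.8 (4.70 to 4.91) per matched read, with the organs as the tables are labelled. It alone was 42.8% of the matched reads of FB and 8.90% of those of S. The CL library held 22114 RPM and the NL library 6540 RPM, so S had the lowest level of the 4 libraries. miR397, which acts on laccases, the copper enzymes of lignin formation, had 1513 reads (240 RPM) in FB and 116 (14.5 RPM) in S, a ratio of 16.5 (13.7 to 20.2) per clean and 5.22 (4.32 to 6.36) per matched read. Its leading form, with 1420 of the FB and 104 of the S reads, has 4 mismatches or gaps to the known miRNA it matched, so its assignment is looser than that of miR528, whose form 1 matched rice miR528 exactly. The other 3 members had too few reads for a call. miR408, which acts on plantacyanin and laccases, had 22 reads in FB and 0 in S. With 3 reads as the limit that a count of 0 allows, it was at least 9.30-fold higher in FB per clean read and at least 2.93-fold per matched read. The exact 95% lower limits of these ratios, which also cover counting error in FB, were smaller, at 6.95 and 2.19. miR398, which acts on copper and zinc superoxide dismutases, had 4 reads in FB and 5 in S, and miR857, which acts on a laccase in *Arabidopsis*, had 1 in each. Neither read of miR857 matched exactly, and its form 1 has 4 mismatches or gaps.

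Among miRNAs tied to nutrients and to the NF-YA transcription factors, only miR169 had enough reads. miR169, whose targets are the NF-YA genes, had 4061 reads (643 RPM) in FB and 339 (42.3 RPM) in S, a ratio of 15.2 (13.6 to 17.0) per clean and 4.79 (4.29 to 5.37) per matched read. The leaf libraries held 19.7 RPM in CL and 20.4 RPM in NL, so FB stood far above the other 3 libraries. The other families of this group had fewer than 100 reads. miR399, which acts on a regulator of phosphate uptake, had 17 reads in FB and 33 in S, miR395, which acts on genes of sulfate assimilation, had 2 in FB and 4 in S, and miR827, which acts on phosphate transport, had 1 in FB and 0 in S. These assignments are loose. No read of miR395 or miR827 matched exactly, and their leading forms have 5 mismatches or gaps. The leading form of miR399 has 4.

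The 2 leading forms of miR169 differed in opposite directions. Form 1 had 3445 reads in FB and 127 in S, a ratio of 34.4 (28.8 to 41.4) per clean and 10.8 (9.09 to 13.1) per matched read. Form 2, which differs by the last base alone, had 42 reads in FB and 121 in S and was lower by both denominators, at 0.440 (0.302 to 0.630) and 0.139 (0.0953 to 0.199). Form 1 was thus 84.8% (83.7 to 85.9) of the family in FB and 37.5% (32.3 to 42.9) in S, and form 2 was 1.03% (0.746 to 1.40) in FB and 35.7% (30.6 to 41.1) in S. Form 3, which is form 1 without its first base, had 135 reads in FB and 5 in S. Form 7, which is form 2 without its first base and with 1 more base at its end, had 6 reads in FB and 24 in S, so the shifted copies differed in the same directions as forms 1 and 2. The leaf libraries held 88 and 108 reads of form 1 and 19 and 7 of form 2 in CL and NL.

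**Figure D3:**
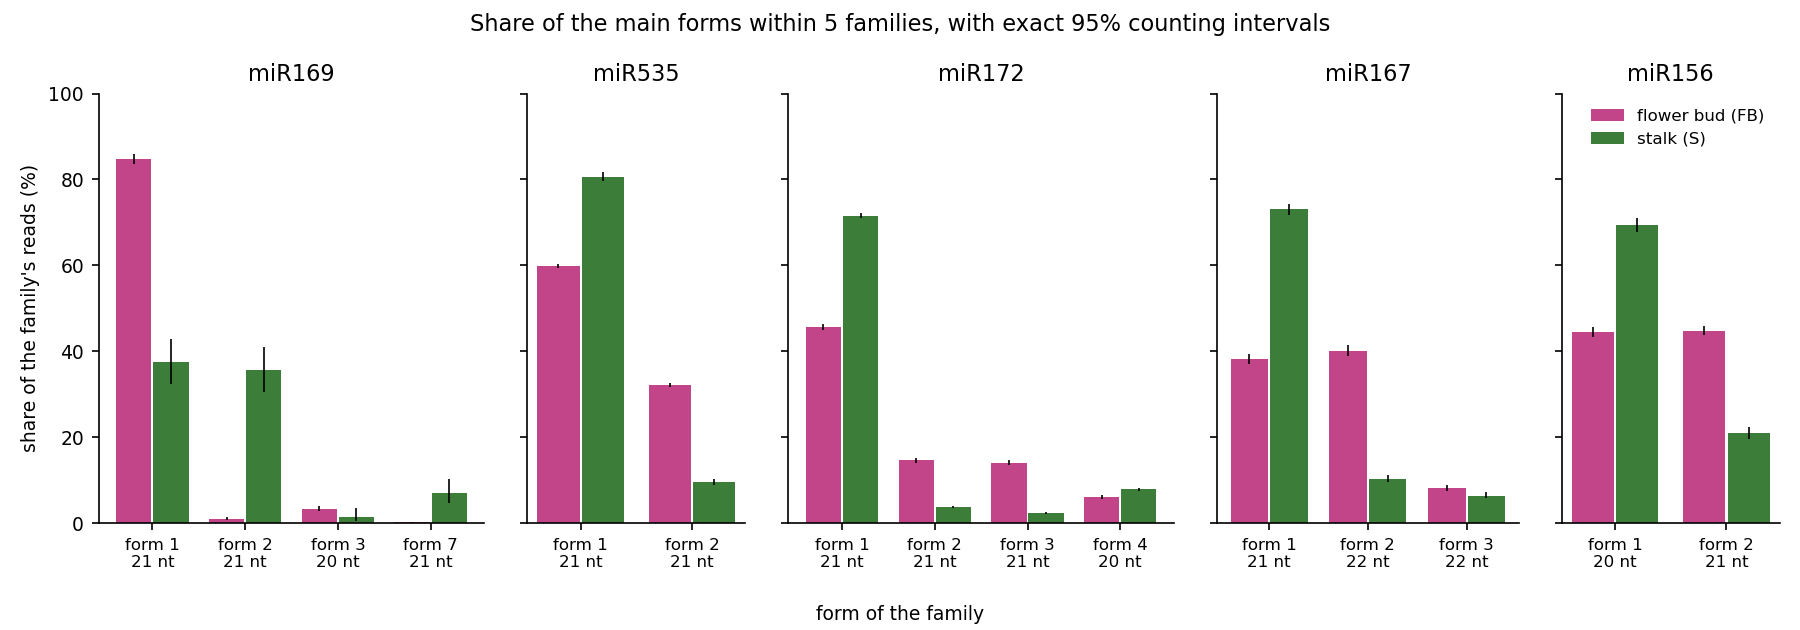
Share of the main forms within miR169, miR535, miR172, miR167 and miR156, as percent of the family's reads in FB (left bar) and in S (right bar), with exact 95% counting intervals. In miR535, miR172, miR167 and miR156 form 1 takes a smaller share in FB than in S and form 2 a larger one, and in miR169 form 1 takes 84.8% in FB and 37.5% in S.

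Within the phase transition group, 3 of 5 families were higher per clean read and none was lower, with a median ratio of 3.20, against 2 higher and 2 lower per matched read, with a median of 1.01. These counts lie near the shares over all 26 families, of which 65.4% were higher per clean read and 34.6% higher and 42.3% lower per matched read. miR156 and miR157, the close relatives that hold back SPL genes in the juvenile phase, both had more reads in FB. miR156 had 7904 reads (1251 RPM) in FB and 3133 (391 RPM) in S, a ratio of 3.20 (3.07 to 3.34) per clean read, but 1.01 (0.968 to 1.05) per matched read. miR157 had 1087 reads (172.1 RPM) in FB and 168 (21 RPM) in S, a ratio of 8.21 (6.97 to 9.72) per clean and 2.59 (2.20 to 3.06) per matched read. Both families had fewer RPM in either reproductive organ than in the leaves, which had 4063 RPM of miR156 in CL and 1594 in NL, and 524 RPM of miR157 in CL and 288 in NL.

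The leading form of miR156 differed between the libraries, although forms 1 and 2 nearly tied in FB. Form 1, of 20 nt, had 3512 reads in FB and 2174 in S, a ratio of 2.05 (1.94 to 2.16) per clean but 0.646 (0.612 to 0.682) per matched read. Form 2, of 21 nt and with the sequence of miR157 inside it, had 3539 reads in FB and 656 in S, a ratio of 6.84 (6.30 to 7.45) per clean and 2.16 (1.98 to 2.35) per matched read. Form 1 was 44.4% (43.3 to 45.5) of the family in FB and 69.4% (67.7 to 71.0) in S, and form 2 was 44.8% (43.7 to 45.9) in FB and 20.9% (19.5 to 22.4) in S. Form 2 and miR157 form 1, which end in the same 20 bases, both had more reads in FB, and miR157 form 1, with 995 reads in FB and 146 in S, had a ratio of 8.65 (7.26 to 10.4) per clean read. In the leaves form 2 led by more than in FB, with 61.4% of the family in CL and 54.1% in NL.

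miR535, a family that resembles miR156 in sequence, had 37574 reads (5948 RPM) in FB and 5423 (677 RPM) in S, a ratio of 8.79 (8.54 to 9.05) per clean and 2.77 (2.69 to 2.85) per matched read. It was the second most abundant family of FB, with 14.2% of its matched reads against 5.11% in S. Its 2 main forms differ in the seed. Form 1, an exact match to the moss miR535a, had 22461 reads in FB and 4375 in S, a ratio of 6.51 (6.31 to 6.73) per clean and 2.05 (1.99 to 2.12) per matched read. Form 2 had 12077 reads in FB and 517 in S, a ratio of 29.6 (27.1 to 32.4) per clean and 9.34 (8.56 to 10.2) per matched read. All sequences with the seed GACGATG of form 2 together made up 32.4% (31.9 to 32.8) of the family in FB and 9.63% (8.85 to 10.4) in S, beside 2.51% in CL and 1.89% in NL. Form 4, which is form 2 without its first base, had 341 reads in FB and 8 in S, a ratio of 54.1 (27.1 to 126) per clean read, the largest of any of the 121 sequences that had reads in both libraries.

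miR172, which acts on AP2-like genes, was 1 of the 3 of the 26 families with fewer RPM in FB than in S, beside miR529 and miR1318. It had 14881 reads (2356 RPM) in FB and 20562 (2565 RPM) in S, a ratio of 0.918 (0.899 to 0.938) per clean read, within the limits, and of 0.289 (0.283 to 0.296) per matched read. That total joins forms with opposite differences. Form 1 had 6790 reads in FB and 14719 in S, a ratio of 0.585 (0.569 to 0.602) per clean and 0.185 (0.179 to 0.190) per matched read. Form 2, with another seed, had 2178 reads in FB and 764 in S, a ratio of 3.62 (3.33 to 3.93) per clean and 1.14 (1.05 to 1.24) per matched read. Form 3, with yet another seed, had 2094 reads in FB and 472 in S, a ratio of 5.63 (5.09 to 6.23) per clean and 1.77 (1.61 to 1.97) per matched read. Without form 1 the ratio of the family was 1.76 per clean read. Form 12 had 105 reads in FB and 0 in S, which against 3 reads is at least 44.4-fold higher per clean read and at least 14-fold per matched read, with exact 95% lower limits of 35.5 and 11.2. It was the most abundant sequence found in 1 of the 2 libraries alone.

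By seed, GAATCTT was 53.6% (52.8 to 54.4) of the miR172 reads of FB and 80.7% (80.2 to 81.3) of those of S. The seed GAATCAT was 15.5% (14.9 to 16.1) in FB and 2.58% (2.37 to 2.81) in S, and GAATCCT was 15.2% (14.6 to 15.8) in FB and 3.93% (3.67 to 4.2) in S. Form 2 was nearly absent from the leaves, with 1 read in CL and 0 in NL, whereas form 7, which differs from form 1 by A1C, had 163 reads in FB and 460 in S but 4490 in CL and 9491 in NL. Form 9, which starts 1 base earlier than form 1, had 22 reads in FB and 144 in S, the smallest ratio of all 121 sequences, at 0.194 (0.118 to 0.305) per clean read.

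miR529, which in grasses also acts on SPL genes, had 171 reads (27.1 RPM) in FB and 321 (40.0 RPM) in S, a ratio of 0.676 (0.558 to 0.816) per clean read, just inside the limit, and of 0.213 (0.176 to 0.257) per matched read. Its leading form differed between the libraries, by a narrow margin in S. Form 1 had 99 reads in FB and 129 in S, and form 2 had 39 in FB and 147 in S, a ratio of 0.337 (0.230 to 0.482) per clean and 0.106 (0.0726 to 0.152) per matched read. Form 1 has 4 mismatches or gaps to rice miR529b and form 2 has 1.

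**Figure D4:**
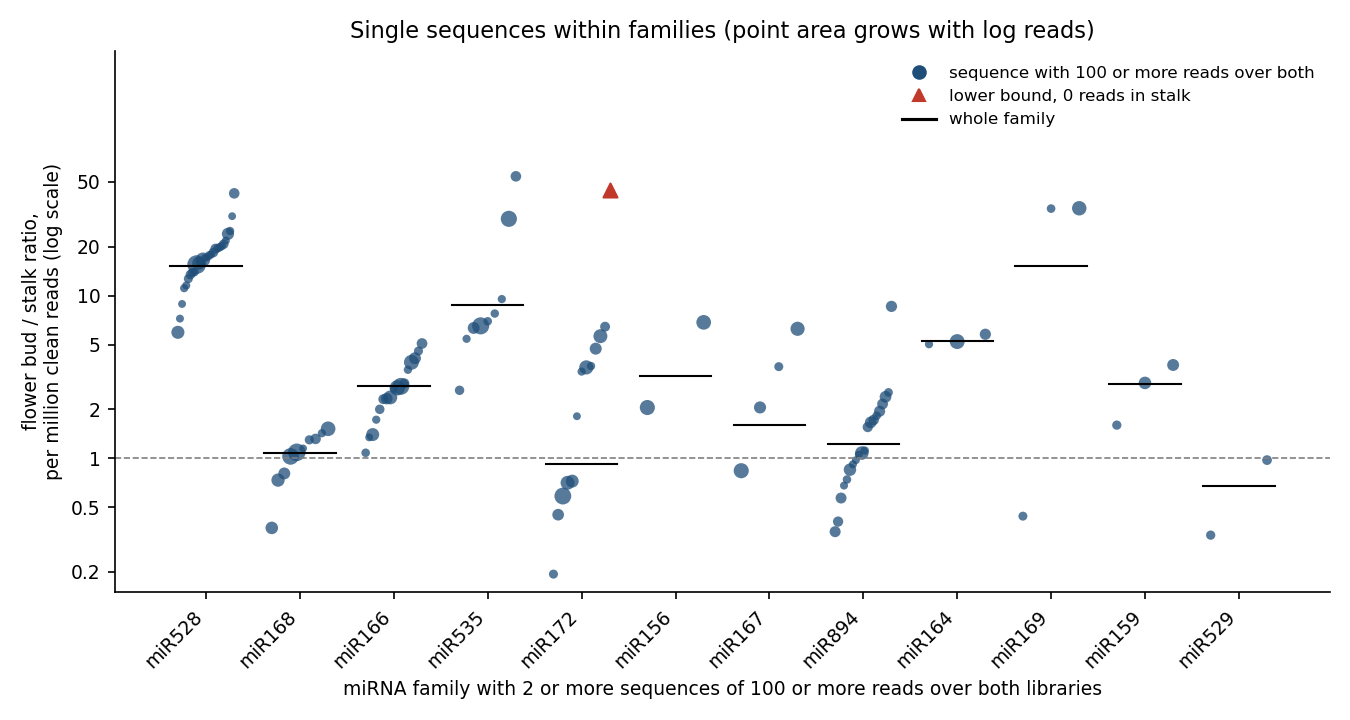
Ratio of FB to S per clean read (log axis) of each sequence with 100 or more reads over both libraries, by family; the black bar is the ratio of the whole family and the triangle a lower bound for a sequence with 0 reads in S. The forms of miR528 all lie above 5, while those of miR172, miR169, miR168 and miR894 fall on both sides of 1 and reach past both limits.

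In the auxin group, 2 of the 3 families with enough reads were higher per clean read and none was lower, and per matched read 1 was higher and 2 were lower, with medians of 1.60 and 0.505. The shares over all 26 families were much the same, at 65.4% higher per clean read and 34.6% higher per matched read. miR160, which acts on repressing auxin response factors, had 94 reads (14.9 RPM) in FB and 9 (1.12 RPM) in S, a ratio of 13.3 (6.69 to 29.9) per clean and 4.18 (2.11 to 9.42) per matched read. miR167, which acts on activating auxin response factors that are needed for flower maturation in *Arabidopsis*, had 6033 reads (955 RPM) in FB and 4777 (596 RPM) in S, a ratio of 1.60 (1.54 to 1.66) per clean read but 0.505 (0.486 to 0.525) per matched read, again with the organs as labelled. Both organs were far below the leaves, which had 6738 RPM in CL and 6091 RPM in NL. miR390, which starts the formation of TAS3 small RNAs against auxin response factors, had 263 reads in FB and 239 in S, a ratio of 1.40 (1.17 to 1.67) per clean but 0.440 (0.368 to 0.527) per matched read. miR393, which acts on auxin receptors, had 10 reads in FB and 21 in S, too few for a call.

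miR167 differed in length between the libraries, and its leading form was not the same, although forms 1 and 2 were close in FB. Form 1, of 21 nt, had 2305 reads in FB and 3490 in S, and form 2, of 22 nt, had 2423 in FB and 492 in S. Per clean read form 1 had a ratio of 0.838 (0.795 to 0.883) and form 2 of 6.25 (5.67 to 6.90); per matched read they were 0.264 (0.251 to 0.279) and 1.97 (1.79 to 2.18). All sequences of 22 nt were 51.2% (49.9 to 52.4) of the family in FB and 18.3% (17.2 to 19.4) in S. Those of 21 nt were 42.9% (41.6 to 44.1) in FB and 78.0% (76.8 to 79.2) in S. In both leaf libraries 22 nt dominated, with 90.0% in CL and 90.5% in NL, so FB lay between the leaves and S.

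The miRNAs of meristems, organ boundaries and leaf polarity formed a group in which all 4 families with enough reads were higher per clean read, with a median ratio of 3.79, and 2 were higher per matched read, with a median of 1.19. Beside them stand 65.4% higher per clean and 34.6% higher per matched read over all 26 families, with medians of 2.66 and 0.840. miR164, which acts on the NAC genes of organ boundaries, had 5106 reads (808 RPM) in FB and 1230 (153 RPM) in S, a ratio of 5.27 (4.95 to 5.61) per clean and 1.66 (1.56 to 1.77) per matched read. miR171, whose targets are GRAS transcription factors of the meristem, had 417 reads (66.0 RPM) in FB and 110 (13.7 RPM) in S, with ratios of 4.81 (3.89 to 5.99) and 1.52 (1.23 to 1.89). Their leading forms took almost the same share in both organs, miR164 form 1 at 77.8% of the family in FB and 78.5% in S, and miR171 form 1 at 54.0% in FB and 53.6% in S. Over all forms the composition of the family overlapped between FB and S, as the sum over sequences of the smaller of the 2 shares, by 93.3% in miR164 and by 74.7% in miR171. miR166, which acts on the HD-ZIP III genes of organ polarity, had 30570 reads (4839 RPM) in FB and 14023 (1750 RPM) in S, a ratio of 2.77 (2.71 to 2.82) per clean but 0.872 (0.855 to 0.890) per matched read. miR165, with the same seed and targets, had 111 reads in FB and 55 in S, a ratio of 2.56 (1.84 to 3.61) per clean but 0.807 (0.579 to 1.14) per matched read.

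The other 2 families of this group had fewer than 100 reads. miR394, which acts on an F-box gene of the shoot meristem in *Arabidopsis*, had 44 reads in FB and 1 in S, a ratio of 55.8 with the wide interval 9.51 to 2254 per clean read, and of 17.6 (3.0 to 711) per matched read. Its form 1, an exact match, had 29 reads in FB, 0 in S, 6 in CL and 3 in NL. miR396, which acts on the GRF genes of cell proliferation, had 70 reads in FB and 28 in S, a ratio of 3.17 (2.02 to 5.11) per clean and 1.0 (0.637 to 1.61) per matched read.

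The sister families miR159 and miR319, which act on GAMYB and TCP genes, were both higher per clean read and neither was higher per matched read, with medians of 2.36 and 0.744. Over all 26 families 65.4% were higher per clean and 34.6% per matched read, with medians of 2.66 and 0.840. miR159 had 1929 reads (305 RPM) in FB and 850 (106 RPM) in S, a ratio of 2.88 (2.65 to 3.13) per clean but 0.908 (0.837 to 0.985) per matched read. miR319 had 103 reads (16.3 RPM) in FB and 71 (8.86 RPM) in S, a ratio of 1.84 (1.35 to 2.53) per clean but 0.580 (0.425 to 0.797) per matched read. Leaves held 1.89 RPM of miR319 in CL and 0.555 RPM in NL, below both reproductive organs.

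Of the miRNAs that feed back on the small RNA pathway, 1 of 2 families was higher per clean read and none was lower, and 1 was lower per matched read, with medians of 2.01 and 0.634, against 65.4% higher per clean and 42.3% lower per matched read over all 26 families. miR168, which acts on AGO1, the main Argonaute of plant miRNAs, had 32487 reads (5143 RPM) in FB and 38451 (4797 RPM) in S, a ratio of 1.07 (1.06 to 1.09) per clean but 0.338 (0.333 to 0.343) per matched read. It was the most abundant family of S, with 36.2% of its matched reads against 12.2% in FB. Its leading forms differ only at the last base (C21A in form 2 and C21T in form 3) and kept their order, form 1 at 57.6% of the family in FB and 56.8% in S and form 2 at 25.6% in FB and 26.8% in S. Form 5 starts at the second base and ends 1 base later than form 2, and was lower by both denominators. It had 236 reads in FB and 803 in S, a ratio of 0.373 (0.321 to 0.432) per clean and 0.118 (0.101 to 0.136) per matched read. miR162, which acts on DCL1, the enzyme that cuts miRNAs from their precursors, had 779 reads (123 RPM) in FB and 335 (41.8 RPM) in S, a ratio of 2.95 (2.59 to 3.36) per clean but 0.930 (0.817 to 1.06) per matched read. miR403, which acts on AGO2 in *Arabidopsis*, was not found in either library.

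Outside these groups, miR1318, a family named in rice, was the only one lower by both denominators, with 69 reads (10.9 RPM) in FB and 183 (22.8 RPM) in S, a ratio of 0.478 (0.357 to 0.634) per clean and 0.151 (0.113 to 0.20) per matched read. Both leaf libraries were above FB, at 39.1 RPM in CL and 25.3 RPM in NL. The assignment of miR1318 is loose, as its form 1 has 3 mismatches or gaps to the rice sequence. miR1023, named in moss, had 95 reads in FB and 92 in S, a ratio of 1.31 (0.973 to 1.76) per clean but 0.413 (0.307 to 0.556) per matched read. Its form 1, of 24 nt, has 4 mismatches or gaps to the known sequence. Of a group of families named in poplar, listed here for a likeness to ribosomal RNA that holds less well for miR2915, whose form 1 resembles part of a transfer RNA, 2 of 4 were higher per clean read and none was lower, and per matched read 1 was higher and 2 were lower, with medians of 1.81 and 0.571, against 65.4% higher per clean read and 34.6% higher and 42.3% lower per matched read over all 26. miR2911 had 451 reads (71.4 RPM) in FB and 98 (12.2 RPM) in S, a ratio of 5.84 (4.68 to 7.34) per clean and 1.84 (1.48 to 2.31) per matched read, its form 1 having 4 mismatches or gaps to the known sequence. miR2910, with 115 reads in FB and 98 in S, had a ratio of 1.49 per clean but 0.469 per matched read. miR2916, with 66 reads in FB and 80 in S, had 1.05 per clean but 0.330 per matched read, and miR2915, with 84 in FB and 50 in S, had 2.13 per clean but 0.672 per matched read. miR2914, with 57 reads in FB and 42 in S, had 1.72 (1.14 to 2.63) per clean but 0.543 (0.358 to 0.829) per matched read.

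Of the 121 sequences, 87 (71.9%) were higher and 10 (8.26%) lower in FB per clean read, and 52 (43%) were higher and 46 (38%) lower per matched read. Since a fixed factor separates the denominators, the 52 are necessarily also higher per clean read and the 10 also lower per matched read. Among the 17 families with 100 or more reads in each library, the leading sequence differed between FB and S in 3, miR156, miR167 and miR529. Each time 1 library held a near tie, with overlapping intervals of the 2 shares. In FB, form 2 led form 1 by 3539 to 3512 reads in miR156 and by 2423 to 2305 in miR167. In S, form 2 led form 1 by 147 to 129 reads in miR529. In 4 families, miR168, miR169, miR172 and miR894, some forms were higher and others lower per clean read. A measure that needs no denominator is the overlap of a family's composition, the sum over its sequences of the smaller of the 2 shares. Among the 14 families with 1000 or more reads, it was lowest between FB and S in miR169 (43.9%), miR167 (60.4%) and miR172 (66.6%) and highest in miR528 (96.2%). It was below the overlap between CL and NL in 12 of these 14 families, the exceptions being miR168 (95.1% between FB and S, 85.3% between CL and NL) and miR164 (93.3% between FB and S, 92.7% between CL and NL). Some gaps were small, as in miR528, with 96.2% between FB and S and 97.8% between CL and NL. An overlap also falls where reads are few. In most of these families, though not in miR159, miR168, miR169 and miR172, S had fewer reads than either leaf library. For miR157 these were 168 in S, 3876 in CL and 2071 in NL. The part of depth in these overlaps was not tested.

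In miR528 the reads were dominated by form 1, with 100341 in FB and 8211 in S, or 88.4% (88.2 to 88.6) of the family in FB and 86.9% (86.2 to 87.6) in S. Sequences that differ from form 1 by 1 base made up 3.82% (3.71 to 3.93) of the family in FB and 4.04% (3.65 to 4.46) in S, intervals that overlap. Form 1 had a ratio of 15.5 (15.2 to 15.9) per clean and 4.89 (4.78 to 5.0) per matched read, and the 28 forms with 100 or more reads lay between 5.94 and 42.5 per clean read, all of them higher. Form 5, without the last 3 bases, had 793 reads in FB and 42 in S, a ratio of 24.0 (17.6 to 33.5), and form 6, without the last 2, had 335 in FB and 10 in S, a ratio of 42.5 (22.8 to 89.4) per clean read.

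Length separated the forms of miR894, a family named in moss whose reads form a ladder of nested sequences. The 3 steps shown were read at 18, 20 and 24 nt, form 5 being form 7 without its first 6 bases.
miR894 form 5: tTCACGTCgggttcacca
miR894 form 1: gTTTCACGtcgggttcacca
miR894 form 7: gTTCGTTTcacgtcgggttcacca
Form 5, of 18 nt, had 426 reads in FB and 63 in S, a ratio of 8.58 (6.57 to 11.4) per clean and 2.71 (2.07 to 3.58) per matched read. Form 1, of 20 nt, had 898 reads in FB and 1059 in S, with ratios of 1.08 (0.983 to 1.18) and 0.339 (0.310 to 0.371). Form 7, of 24 nt, had 95 reads in FB and 341 in S, with ratios of 0.353 (0.279 to 0.445) and 0.111 (0.0878 to 0.140). Over all miR894 sequences the ratio per clean read declined with every added base, through 3.02 at 18 nt, 1.77 at 19 nt, 1.12 at 20 nt, 0.875 at 21 nt, 0.595 at 22 nt and 0.473 at 23 nt to 0.338 at 24 nt. Per matched read every length lay below 1, at 0.952 for 18 nt and 0.107 for 24 nt. The whole family, with 4833 reads in FB and 4989 in S, had a ratio of 1.23 (1.18 to 1.28) per clean but 0.387 (0.372 to 0.403) per matched read.

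**Figure D5:**
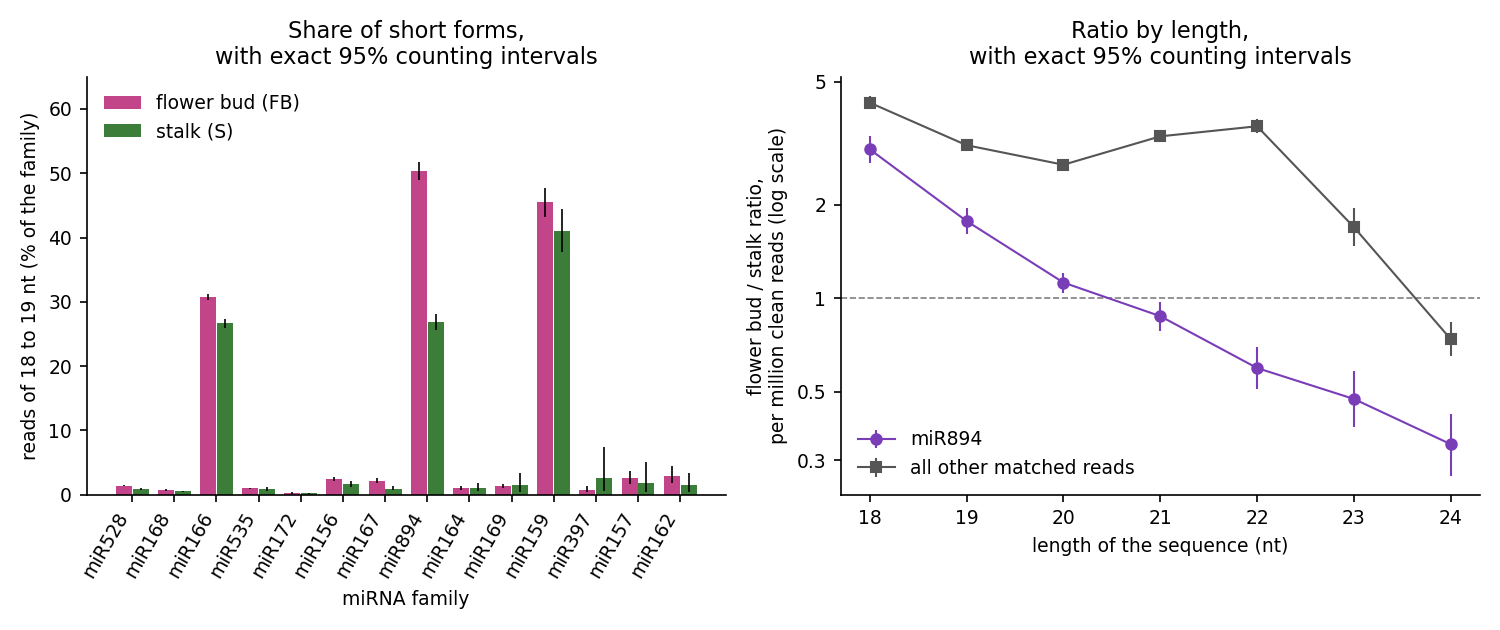
Left, share of reads of 18 to 19 nt in each of the 14 families with 1000 or more reads, FB left and S right, and right, ratio of FB to S per clean read (log axis) by length for miR894 and for all other matched reads, both with exact 95% counting intervals. miR894 declines from 3.02 at 18 nt to 0.338 at 24 nt, and the other reads lie at 2.70 or above up to 22 nt and at 0.738 at 24 nt.

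Shorter forms took a larger share in FB in other families too. The share of reads of 18 to 19 nt was higher in FB in 12 of the 14 families with 1000 or more reads, miR894 among them. This share had intervals that do not overlap in 4 of the 12, miR528, miR166, miR167 and miR894 itself, and in none the other way. In miR894 it was 50.4% (48.9 to 51.8) in FB and 26.8% (25.6 to 28.0) in S, and in miR166 30.7% (30.2 to 31.3) in FB and 26.7% (25.9 to 27.4) in S. The share of 23 nt and longer was higher in FB in 0 of the 14, and lower with intervals apart in 7. Outside miR894 the ratio per clean read was 4.27 (4.06 to 4.50) at 18 nt, 3.33 (3.30 to 3.35) at 21 nt and 0.738 (0.649 to 0.838) at 24 nt, and per matched read it was 1.35, 1.05 and 0.233 at these lengths. Reads of 18 to 19 nt are shorter than the 20 to 25 nt cut from the gel. By the study's own accounting many more reads were dropped for being too short in FB than in S. The part of this difference in these lengths was not tested.

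Over all matched reads, 83.8% (83.7 to 84.0) in FB and 80.5% (80.2 to 80.7) in S had 21 nt. The order turned round without miR528, with 77.2% (77.0 to 77.4) in FB and 79.4% (79.1 to 79.6) in S. The first base was T in 86.4% (86.3 to 86.6) of the reads of FB and 72.0% (71.7 to 72.3) of those of S, and A in 4.29% (4.21 to 4.37) of those of FB and 17.0% (16.8 to 17.2) of those of S. miR172, whose form 1 starts with A, held most of the A reads: without it A began 0.564% (0.535 to 0.594) of the reads of FB and 1.36% (1.28 to 1.44) of those of S. Exact matches to a known miRNA made up 66.0% (65.8 to 66.2) of the reads of FB and 51.3% (51.0 to 51.6) of those of S, while 1 mismatch or gap was found in 21% of FB and 36.9% of S reads. Up to 1 mismatch or gap, the shares came closer, at 87.0% in FB and 88.2% in S.

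The 2 libraries shared 1514 sequences, 31.3% of those of FB and 46.0% of those of S, which held 98.1% of the reads of FB and 98.0% of those of S. FB alone had 3317 sequences, of which 23 reached 10 reads, and S alone had 1774, of which 4 reached 10 reads. Single reads made up 64.4% of the sequences of FB and 65% of those of S. Thinned to the reads of S, FB would be expected to show 2677 sequences, against 3288 found in S.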

How the data were processed

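The authors discarded adaptor, contaminant, polyA and low quality reads and those below 18 nt, collapsed identical reads and aligned them by BLAST (version not given in the sources used here) to miRBase 15. The deposited tables give the count of reads of each matched sequence, not normalized. The study states fewer than 5 mismatches plus gaps, but the tables hold sums of 5 (272 reads in FB and 469 in S), which were kept. Counts were divided by the study's totals of clean reads, or by matched reads, with Python 3.11.15, pandas 2.3.3 and scipy 1.17.1. Ratios have exact conditional binomial 95% intervals, tested on simulated data. Shares have Clopper-Pearson intervals, checked on fixed inputs only. For a count of 0, a limit of 3 reads was used. Named were all families with 100 or more reads over both libraries or in lists by role, their leading sequences, the 10 largest and 10 smallest ratios, and forms of 5% or more in families with 1000 or more reads. Members and lists were chosen with earlier results of these data known. Alternatives varied the denominator, the match, the length, the minimum and the limit of the ratio. No genome was used here, so no loci are given.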

Additional observations from a re-analysis of the deposited data

How the results depend on the processing

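The ratio of matched reads, 3.17, was 2.74 per high-quality read, 4.08 for exact matches, 3.13 with at most 1 mismatch or gap, 3.20 for sequences with 2 or more reads, 3.21 at 20 to 22 nt and 1.99 without miR528. Families higher and lower in FB, 17 and 1 of 26, numbered 9 and 11 per matched read, 10 and 7 per matched read without miR528, 9 and 9 when scaled by the median ratio of sequences with 100 or more reads in each library, 26 and 3 of 48 at a minimum of 20 reads, and 11 and 0 of 14 at a minimum of 1000. For exact matches 11 of 15 were higher, and 2 were lower per high-quality read, for sequences with 2 or more reads, at 20 to 22 nt, or without each family's top sequence. Sequences higher and lower, 87 and 10 of 121, numbered 52 and 46 per matched read, 268 and 30 of 377 at 20 reads, 21 and 2 of 31 at 1000 reads, and 15 and 2 of 20 for exact matches. The lower ones numbered 31 per matched read without miR528, 36 by the median ratio, and 5 of 80 with at most 1 mismatch or gap. The leading sequence differed in 1 of 13 families for exact matches, against 3 of 17. The ratio stayed above 1 in 10 families, the 9 higher by both denominators and miR156, in each of the 8 to 12 settings that gave the family a value, and below 1 in 2, miR1318 (10 settings) and miR529 (11 settings). Families higher per clean read that turned below 1 per matched read were miR166 (0.872), miR167 (0.505), miR159 (0.908), miR162 (0.930), miR319 (0.580), miR165 (0.807) and miR2915 (0.672), without miR528 in that denominator miR167 (0.804) and miR319 (0.924), by the median ratio miR167 (0.683), miR319 (0.785) and miR2915 (0.909), and for exact matches miR167 (0.869). Forms that turned per matched read were miR156 form 1 (0.646), miR159 forms 1 (0.915) and 3 (0.504), miR162 form 1 (0.930), miR166 forms 1 (0.872), 2 (0.854) and 4 (0.745), miR167 form 3 (0.647), miR168 form 3 (0.478) and miR894 forms 3 (0.752), 4 (0.524), 6 (0.613) and 9 (0.679). Without miR528 in that denominator these were miR159 form 3 (0.802), miR168 form 3 (0.761) and miR894 forms 4 (0.834) and 6 (0.976), and by the median ratio miR156 form 1 (0.874), miR159 form 3 (0.681), miR167 form 3 (0.875), miR168 form 3 (0.647) and miR894 forms 4 (0.708), 6 (0.829) and 9 (0.919). Apart from exact matches, where fewer sequences were counted, these turns follow from the denominator, which moves all ratios alike. Of the other values of families, 104 moved by more than their counting interval and 139 did not, and of single sequences 160 and 40. The share of 21 nt was 3.37 points higher in FB, 2.55 points for exact matches and -2.18 points without miR528, alternatives chosen after seeing the data. No paired analysis was possible because each organ has 1 library, and no replicate could be left out. Families with few reads, such as miR160 and miR394, are limited by depth, as their intervals show.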

Other observations

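The families that act on pigment regulators, and those that trigger phased small RNAs, had few reads in either organ. miR858, which acts on MYB genes of pigment formation in *Arabidopsis*, had 11 reads in FB and 0 in S, and 0 in both leaf libraries. Against a limit of 3 reads this is at least 4.65-fold higher in FB per clean read and at least 1.47-fold per matched read. The exact 95% lower limits, 3.18 and 1.0, are smaller, so per matched read no ratio above 1.0 is assured, and its leading form has 4 mismatches or gaps to the known sequence. miR828, which also acts on MYB genes, had 1 read in FB and 2 in S. None of these matched exactly, and its leading form has 4 mismatches or gaps. Of the triggers of phased small RNAs known from grass inflorescences, miR2275 had 7 reads in FB and 6 in S, miR482, which triggers phased small RNAs in other plants, had 3 in each, and miR2118 was not found in either library. No read of miR2275 or miR482 matched exactly, and their leading forms have 4 and 5 mismatches or gaps.

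The reads of miR390 included sequences with the seed GCTATCT, which is not the seed of the mature strand, with 18 reads in FB and 2 in S, or 6.84% (4.11 to 10.6) of the family in FB and 0.837% (0.102 to 2.99) in S. The ratio was 11.4 (2.73 to 101) per clean read, against 1.10 (0.889 to 1.36) for form 1, the mature strand. Among sequences found in S but not in FB, the most abundant were miR894 form 37 (18 reads, 22 nt), miR172 form 59 (11 reads), miR894 form 48 (11 reads, 23 nt), miR172 form 64 (10 reads) and miR1318 form 6 (9 reads). Those found in FB but not in S were led, after miR172 form 12, by miR528 forms 41 (55 reads) and 50 (41 reads), each 1 mismatch or gap from rice miR528.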
